A study of Mus musculus with 6 samples.

Results

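The mitochondrial ribosomal protein genes were read here in RAW264.7 cells, a mouse macrophage line established from a virus-induced tumour, after exposure to AEPS, a polysaccharide from the roots of the kiwifruit relative Actinidia eriantha. Members were all genes whose name in the array annotation starts with Mrpl or Mrps followed by a number. The rule gave 76 of 23808 named genes, 47 of the large subunit (Mrpl) and 29 of the small subunit (Mrps), measured by 101 probes. Cells treated with AEPS at 50 µg/ml were set against control cells in DMEM medium alone, both taken at 4 h, with 3 labelled samples per group and 1 Cy3-labelled array per sample. All samples are of 1 unmodified cell line.

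The mitochondrial ribosome, or mitoribosome, translates the few proteins encoded by mitochondrial DNA, all of them subunits of the respiratory chain and the ATP synthase. Its proteins are encoded in the nucleus, made in the cytosol and imported, and its RNAs come from mitochondrial DNA. Some of the proteins have counterparts in the bacterial ribosome and others are found only in mitochondria. Macrophages activated by microbial products are known to change how they use their respiratory chain, which places the genes that build it among those of interest in such cells.

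Both groups held fewer distinct arrays than labelled samples. Replicates 1 and 2 of each group had the same values at 62976 of 62976 scanned spots, and were counted as 1 replicate. This left 2 distinct AEPS arrays and 2 distinct control arrays, and each of 2 slides held 1 array of each group. The authors' deposited value table has 3 columns per group. The first columns matched the scanner arrays of replicates 1 and 2 (slide 1). The second columns matched the scanner arrays of replicate 3 (slide 2), so replicate 3 below names a scanner array. The third pair of columns, AEPS 3 and control 3, matched neither and so gave values that the scanner fit did not use. The share of the 59305 spots other than controls with signal well over background was 56.7% and 55.4% on the AEPS arrays and 58.7% and 55.4% on the control arrays, and 0 spots were saturated. The 7 macrophage markers examined (Adgre1, Cd68, Csf1r, Itgam, Lyz2, Ptprc and Spi1) were well above background on all 4 arrays. Of these, Ptprc was higher with AEPS (log2 change 0.93, limma adjusted p 0.048) and the other 6 did not pass, although Csf1r, at -0.60, passed with the slide as block described below (0.037). Among markers of other cell types, Epcam, Col1a1 and Alb were not well above background in either group, whereas Cd3e and Pecam1 were, without passing the test between the groups. Cd3e, a T cell gene, gave 2.87 and 2.20 with AEPS and 3.27 and 2.89 in control cells on the log2 scale described below, and its part in the results was not tested. The labels do not say whether the samples of a group were grown separately, and the spread behind each p-value may be technical. In RNA from whole cultures, fewer cells of a type and less RNA per cell cannot be told apart.

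To show what the arrays read, the probes of 2 members are given 5′ to 3′ in the sense of the transcript, with mm9 coordinates from the array annotation. Each is a 60-base stretch whose genomic span is longer than the probe, so it crosses at least 1 exon junction. Both stand among the members with large differences below.
Mrps11 (chr7:85933622-85935544, plus strand): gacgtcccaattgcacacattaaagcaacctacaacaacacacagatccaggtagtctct
Mrpl47 (chr3:32629104-32630111, minus strand): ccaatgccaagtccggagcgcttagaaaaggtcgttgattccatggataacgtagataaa

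The promoters of 3 members are shown because they belong to those furthest below and above the control arrays and to one with several matches to the letters read by NRF-1, a factor known to act on nuclear genes for mitochondrial proteins. They are the 150 bases upstream of the annotated start, from RefSeq on GRCm38.p6, with matches to GCATGCGC on either strand in capitals.
Mrpl12 (chr11:120484487-120484636, plus strand): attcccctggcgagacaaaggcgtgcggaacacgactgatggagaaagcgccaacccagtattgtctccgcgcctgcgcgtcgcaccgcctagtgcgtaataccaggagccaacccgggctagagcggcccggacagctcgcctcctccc
Mrpl1 (chr5:96209965-96210114, plus strand): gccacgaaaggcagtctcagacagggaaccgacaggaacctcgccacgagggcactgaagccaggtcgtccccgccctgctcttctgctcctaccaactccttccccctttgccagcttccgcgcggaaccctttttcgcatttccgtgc
Mrpl32 (chr13:14613038-14613187, minus strand): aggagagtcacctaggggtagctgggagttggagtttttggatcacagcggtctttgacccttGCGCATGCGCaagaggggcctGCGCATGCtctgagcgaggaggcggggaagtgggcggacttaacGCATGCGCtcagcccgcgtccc

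Mitoribosomal protein genes were detected almost without exception, and their differences between AEPS and control cells were small and ran in both directions. Of the 76 genes, 75 were well above background on all 4 arrays and were tested. The exception was Mrpl21, whose single probe was not well above background on any array. Signals are given as log2 of the processed signal over the array's 75th percentile, and log2 changes as AEPS over control. On this scale 28 members lay above 0 and 47 below, between 0.85 for Mrpl1 and -0.71 for Mrpl12, with a median of -0.08 beside -0.11 for the 15060 named genes tested. A difference of more than 0.4 in size was seen for 23 of 75 members (30.7%), against 47.8% of named genes. The members were brighter, with median signals of 5.15 to 5.36 over the arrays, beside 0.62 to 0.80 for named genes. The share was 33.3% for cytosolic ribosomal protein genes and 18.7% for respiratory chain and ATP synthase genes, so a low share was not particular to the members. No member changed past an adjusted p of 0.05 in limma, with the lowest at 0.0702 for Mrpl1, whereas 7.11% of all 25929 features did. At an unadjusted p of 0.05, 7 members were higher (9.33%) and 12 lower (16.0%), against 14.4% and 18.2% of all features, so neither share exceeded the background. The standard errors of the members' log2 changes lay between 0.13 and 0.22. All of these values are relative to the 75th percentile. With scaling to the spike-in controls the median of all named genes moved to 0.50, and 73 of the 75 members then lay above 0.

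Samples of the same number or slide deviated together, and with the slide as a block in limma some members passed. The blocked fit also estimates a slide effect from the same 4 arrays, which leaves little information on each gene's own spread. Its p-values therefore lean on the spread that limma pools over all features, and single calls are to be read with that limit. In that fit 9 of 75 members (12.0%) were higher with AEPS, beside 13.0% of all features, and 12 (16.0%) were lower, beside 16.8%. In the authors' deposited table with its 3 columns per group, 11 members (14.7%) were higher, against 17.0% of all features, and 21 (28.0%) were lower, against 16.4%. Both sets of calls rest in part on the same arrays. With the replicate block in the table, 13 were higher and 24 lower, against 23.5% and 26.4% of all features. The direction of the calls changed with the scaling of the scanner arrays. Spike-in scaling called 7 members higher and 0 lower, against 11.9% and 0.397% of all features, and normexp background correction called 5 higher and 0 lower, against 7.34% and 10.4%. Quantile normalization called 1 higher, Mrps15, and 2 lower, Mrpl12 and Mrps24, against 6.59% and 5.55%. Of the 21 members called with the block, 20 were also called in the table, 8 higher and 12 lower. The exception was Mrpl35. On the scanner arrays 18 of the 74 members measured on all 4 had both AEPS arrays above both control arrays (24.3%, background 25.2%), and 31 had them below (41.9%, background 38.0%). In the authors' deposited table, all AEPS columns lay above all control columns for 18 of 75 members (24.0%, background 23.3%) and below them for 27 (36.0%, background 24.7%).

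**Figure D1:**
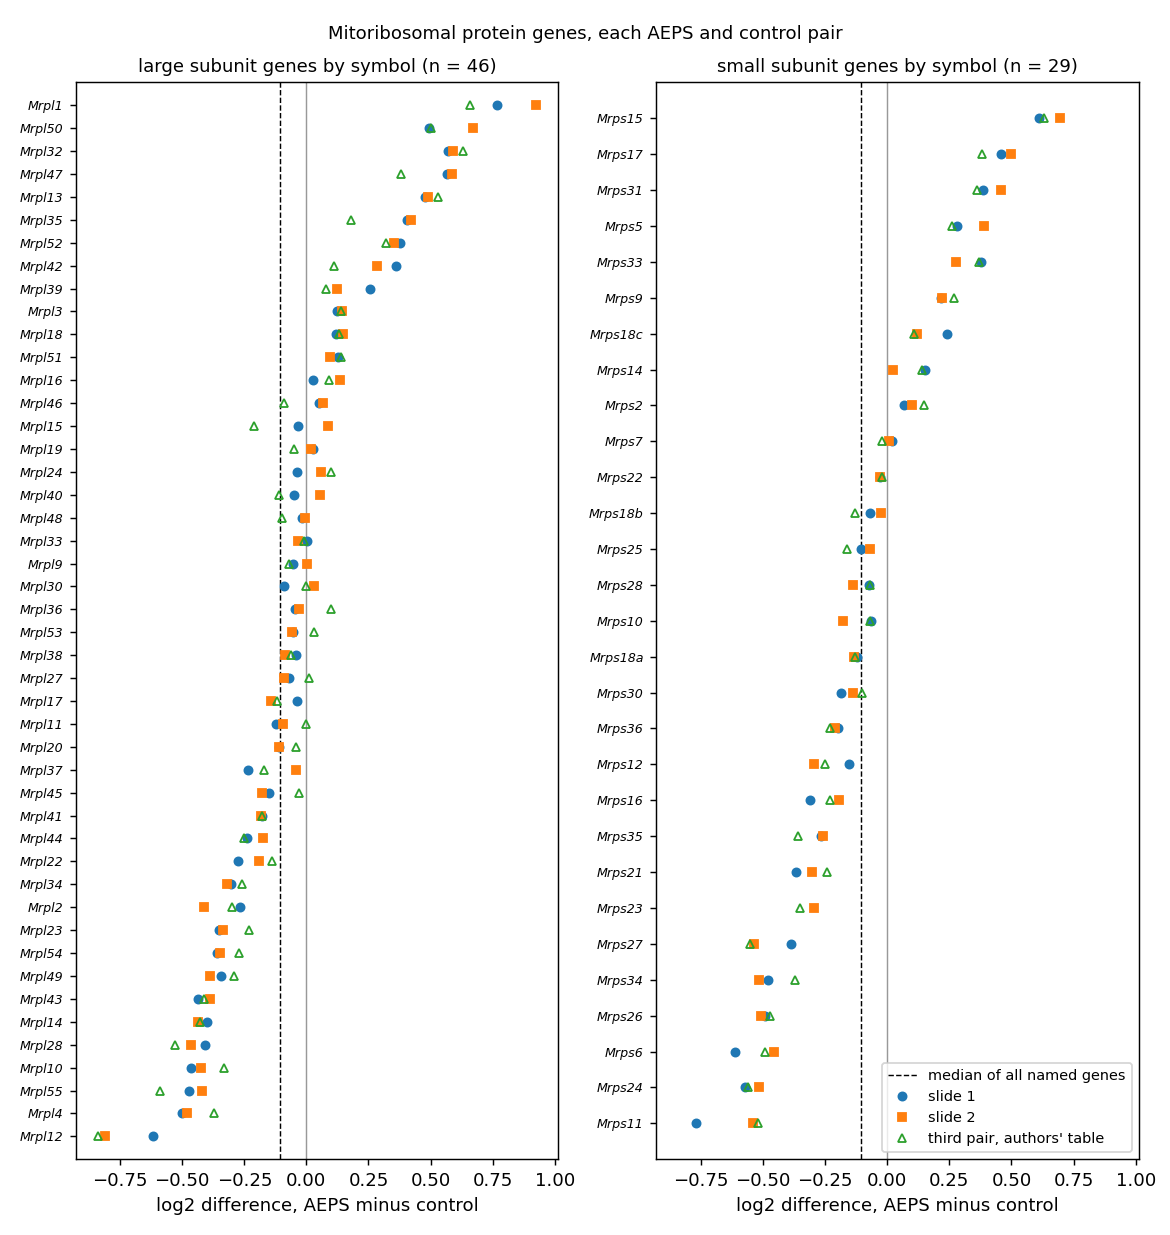
Log2 difference, AEPS minus control, on slide 1, slide 2 and in the third pair of the authors' table for each of 46 large subunit and 29 small subunit genes (75 tested), with the dashed line at the median of all named genes (-0.11). Differences run from below to above 0 in both subunits, relative to the 75th percentile on the scanner arrays; with spike-in scaling 73 of 75 members lie above 0.

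Large and small subunit genes gave medians close to each other. The 46 large subunit genes tested had a median of -0.05, with 18 above 0 and 28 below, and per slide medians of -0.05 and -0.04. The 29 small subunit genes had a median of -0.12, with 10 above 0 and 19 below, and per slide medians of -0.09 and -0.14. In the third pair of the authors' deposited table the medians were -0.05 and -0.13. With the slide as block, 6 of the 46 large subunit genes were higher and 7 lower, and 3 of the 29 small subunit genes were higher and 5 lower. The same fit called 13.0% of all features higher and 16.8% lower. Under spike-in scaling both medians turned positive, to 0.56 and 0.48. Since the symbols do not follow the structure in every case, the sets were also read by known structure, with Mrps30 and Mrps18a in the large subunit and Mrps36 in neither. The medians were then -0.06 over 48 large subunit genes and -0.10 over 26 small subunit genes.

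The members were also read by origin, as genes with a bacterial counterpart and genes found only in mitochondria. In the large subunit, 11 of 29 genes with a bacterial counterpart (37.9%) differed by more than 0.4 in size, and 2 of 19 mitochondrion-specific genes (10.5%) did. In the small subunit the shares were 5 of 16 (31.2%) and 5 of 10 (50.0%). The latter 5 include Mrps23 (-0.41), whose brightest probe lacked a control array and whose other probe read 0.06. The medians of the 4 classes were -0.04, -0.06, -0.05 and -0.17 in the same order. No test was made of these class differences.

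The stalk proteins, which recruit translation factors to the large subunit, were at or below the control level. Mrpl12, the counterpart of the bacterial stalk protein that contacts elongation factors, gave 6.54 and 6.74 on the AEPS arrays of slides 1 and 2, against 7.16 and 7.55 on the control arrays. The groups did not overlap, and the log2 change was -0.71 ± 0.20 (SE, n = 2 arrays each), with an adjusted p of 0.107 in limma and 0.0399 with the slide as block. In the authors' deposited table Mrpl12 read 15.0, 15.0 and 14.9 in the AEPS columns, against 15.6, 15.7 and 15.7 in the control columns. Mrpl10, which anchors the stalk, gave 3.24 and 3.35 with AEPS, against 3.71 and 3.78 in control cells. Its change was -0.44 ± 0.14 (SE), with an adjusted p of 0.120 in limma and 0.0458 with the block. For Mrpl11, at the base of the stalk, the signals were 6.37 and 6.52 with AEPS and 6.49 and 6.61 in control cells, and the ranges overlapped (log2 change -0.11, limma adjusted p 0.635). Of the 3, Mrpl12 alone stayed below 0 with spike-in scaling, at -0.11, where Mrpl10 read 0.16 and Mrpl11 read 0.50.

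Opposite the stalk, Mrpl1, counterpart of the bacterial protein of the mobile arm beside the exit site for tRNA, was higher. Its signals were 0.71 and 1.03 on the AEPS arrays, against -0.05 and 0.10 on the control arrays. The log2 change, the highest among the members, was 0.85 ± 0.18 (SE), equal to a ratio of 1.80, with an adjusted p of 0.0702 in limma and 0.0353 with the block. The authors' deposited table listed 9.26, 9.51 and 9.33 for the AEPS columns, against 8.47, 8.65 and 8.67 for the control columns, and every AEPS value was above every control value.

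A further 5 large subunit genes passed upward with the block. Mrpl32, a zinc-binding protein that is cut to its mature form after import, gave 4.45 and 4.44 with AEPS, against 3.88 and 3.85 in control cells. Its arrays agreed closely within each group, and its change was 0.58 ± 0.13 (SE; limma adjusted p 0.0747, with the block 0.0371). Mrpl47 gave 3.39 and 3.67 with AEPS and 2.82 and 3.09 in control cells, a change of 0.58 (limma adjusted p 0.132, with the block 0.0372). Mrpl47 is the counterpart of a bacterial protein beside the exit of the peptide tunnel. Mrpl50, a mitochondrion-specific protein, gave 2.05 and 2.14 with AEPS and 1.56 and 1.48 in control cells. Its change was 0.58, and its second probe, spotted 10 times on each array, gave 0.71. Mrpl13, counterpart of a bacterial protein that binds the large ribosomal RNA, gave 5.62 and 5.67 with AEPS and 5.14 and 5.19 in control cells (log2 change 0.48). For Mrpl35 the values were -0.27 and 0.07 with AEPS and -0.68 and -0.35 in control cells (0.41, adjusted p 0.0480 with the block), and its adjusted p in the authors' table was 0.161.

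**Figure D2:**
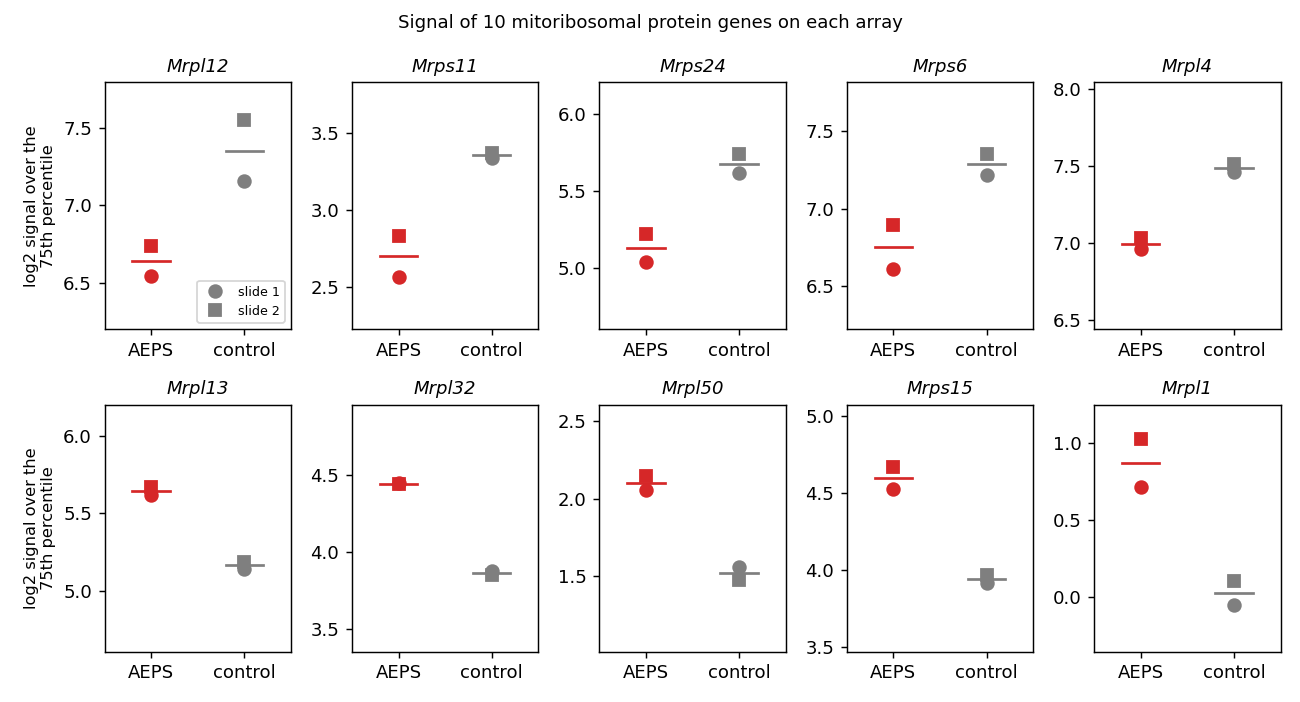
Log2 signal over the array's 75th percentile on each AEPS and control array (circles slide 1, squares slide 2, bars the mean of 2 arrays) for 10 of the members with large differences. The upper 5 genes lie lower with AEPS on both arrays and the lower 5 lie higher; with spike-in scaling only Mrpl12 and Mrps11 of the upper 5 remain below 0.

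On the lower side of the large subunit, Mrpl4, counterpart of a bacterial protein that lines the peptide tunnel, gave 6.96 and 7.03 with AEPS, against 7.46 and 7.51 in control cells. The groups were separate, and the change was -0.49 ± 0.13 (SE; limma adjusted p 0.0982, with the block 0.0415). Mrpl55 gave 5.12 and 5.32 with AEPS and 5.59 and 5.74 in control cells, and Mrpl28 gave 3.64 and 3.85 with AEPS and 4.05 and 4.32 in control cells. Both had a log2 change of -0.44 and passed with the block (adjusted p 0.0462 for Mrpl55 and 0.0472 for Mrpl28). Mrpl14, which in human cells is contacted by the assembly factor MALSU1, changed by -0.42 and Mrpl43, a mitochondrion-specific protein, by -0.41, and both also passed with the block. Mrpl20, Mrpl33 and Mrpl52, named by the rule for their high signal, had changes of -0.11, -0.02 and 0.36. Mrpl33 and Mrpl20 overlapped between the groups, whereas the AEPS arrays of Mrpl52 (7.95 and 8.21) were narrowly above its control arrays (7.57 and 7.86), with an adjusted p of 0.0546 in the blocked fit. With spike-in scaling Mrpl4, Mrpl55 and Mrpl28 read 0.11, 0.16 and 0.17.

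In the small subunit, Mrps15, counterpart of a bacterial protein that binds the small ribosomal RNA early in assembly, was the highest. It gave 4.53 and 4.67 on the AEPS arrays, against 3.92 and 3.97 on the control arrays, with no overlap. The log2 change was 0.65 ± 0.14 (SE; limma adjusted p 0.0705, with the block 0.0367), and in the authors' deposited table the adjusted p from limma was 0.00178. Mrps17 gave 4.82 and 5.05 with AEPS and 4.36 and 4.56 in control cells (log2 change 0.48, adjusted p 0.0430 with the block). Mrps31, a mitochondrion-specific protein, gave 3.96 and 4.23 with AEPS and 3.58 and 3.77 in control cells, a change of 0.42 (adjusted p 0.04996 with the block, just under the threshold). Mrps5 and Mrps33 stood at 0.33 each and did not pass with the block (adjusted p 0.0690 and 0.0694), although both were called in the authors' table.

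Mrps11 lay furthest below among small subunit genes. Its counterpart in bacteria sits on the platform where messenger RNA leaves the subunit. Signals of Mrps11 were 2.57 and 2.83 on the AEPS arrays, against 3.34 and 3.37 on the control arrays, a log2 change of -0.65 ± 0.16 (SE; limma adjusted p 0.0852, with the block 0.0464). The spread between the AEPS arrays was smaller than the gap between the groups, and with spike-in scaling the change was -0.05. Mrps24 gave 5.04 and 5.22 with AEPS and 5.61 and 5.74 in control cells, a change of -0.55 (adjusted p 0.0393 with the block). For Mrps6 the signals were 6.61 and 6.89 with AEPS and 7.22 and 7.35 in control cells, a change of -0.54 (0.0471 with the block). Mrps26 and Mrps34, both mitochondrion-specific, changed by -0.50 each and passed with the block. Mrps21 changed by -0.34 and did not pass with the block (0.0622). With spike-in scaling Mrps24, Mrps6, Mrps26 and Mrps34 read 0.06, 0.07, 0.10 and 0.11.

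Several small subunit genes were described whatever their values. Mrps12, counterpart of the bacterial protein at the decoding site, gave 4.83 and 4.83 with AEPS and 4.98 and 5.13 in control cells, a change of -0.22 (limma adjusted p 0.324). The 3 paralogs Mrps18a, Mrps18b and Mrps18c, which occupy different places in the mitoribosome, changed by -0.13, -0.05 and 0.18, and on the scanner arrays the groups overlapped for each. Mrps30, a protein of the large subunit despite its symbol, changed by -0.16. Mrps36, now known as a subunit of the 2-oxoglutarate dehydrogenase complex, changed by -0.20. None of these 6 genes passed in limma on the scanner arrays with or without the block. In the authors' deposited table with the replicate block, Mrps12 and Mrps36 passed as lower, as did 26.4% of all features. On the 75th percentile scale their standard errors were between 0.13 and 0.18.

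The third pair of the authors' deposited table gave a reading from arrays outside the scanner fit. All 9 members above 0.4 on the scanner arrays were above 0 in that pair, between 0.18 and 0.66. All 14 members under -0.4 were below 0 in it, between -0.84 and -0.33. Among the 14, Mrps23 (-0.41) lacked a control array on its brightest probe, and its other probe read 0.06. Across the 75 members the scanner log2 change and the third pair correlated with a Pearson r of 0.96 and a Spearman rho of 0.95, and across named genes the Pearson r was 0.88. These are descriptions across genes, which are not independent replicates and share arrays and normalization. Of 74 members measured on both slides, 68 had the same sign on each.

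**Figure D3:**
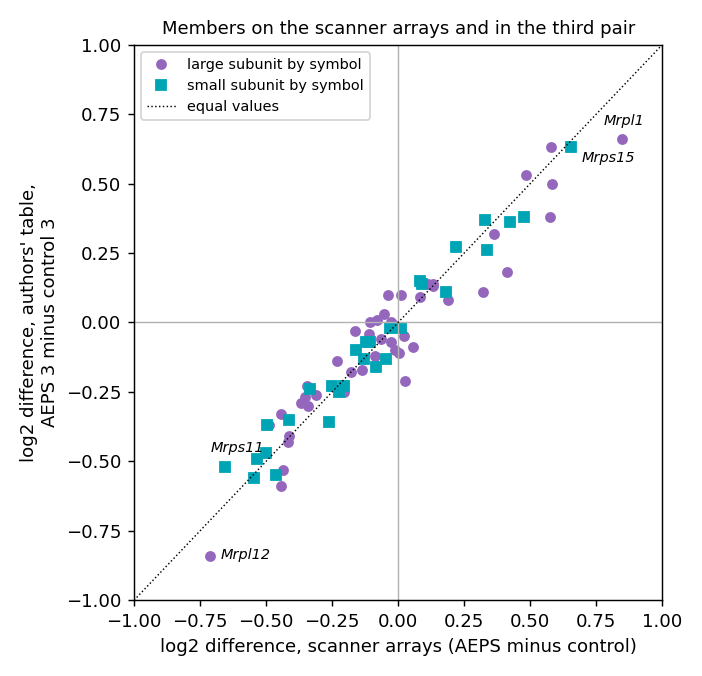
Log2 difference of each of 75 members on the scanner arrays (horizontal, AEPS minus control, mean of 2 arrays each) against AEPS 3 minus control 3 in the authors' table (vertical), large subunit genes as circles and small subunit genes as squares. Points lie along the dotted line of equal values (Pearson r 0.96 across members), relative to each source's own normalization.

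Probes of the same gene differed by less than 0.5 in log2 change, a limit wider than the 0.4 used above for large differences. Of the members, 24 had more than 1 tested probe, and in none did the probes differ by more than 0.5, with a median difference of 0.14. The largest difference was 0.47, for Mrps23, whose brightest probe had 1 control array left out as a spot outlier. That probe read -0.41 and the other 0.06. Mrps7 differed by 0.45, with 0.01 on its brightest probe and 0.47 on the other, so its place among large differences depends on the probe. For 6 of the 24 genes (Mrpl9, Mrpl15, Mrpl27, Mrpl30, Mrpl40 and Mrps23) the probes differed in sign. Other probes, 3 in all, were spotted 10 times on each array, and the standard deviation between those spots was 0.0067 to 0.070 for Mrpl34, 0.039 to 0.088 for the second Mrpl50 probe and 0.036 to 0.118 for Mrps35. Across the 75 members the log2 change and the probe's GC content had a Spearman rho of -0.31, beside -0.29 across named genes. With the mean signal level the rho was -0.35 across members, so brighter members tended to lie lower, and 0.09 across named genes. The part of signal level in the differences was not tested.

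Mitoribosomal proteins that carry other symbols were read beside the members. Of 7 examined, the median change was -0.34, and 0 passed in limma. At an unadjusted p of 0.05, 1 was above and 1 below (14.3% each), against 14.4% and 18.2% of all features. Ptcd3 (0.46) and Aurkaip1 (-0.45) passed with the block in opposite directions, where 13.0% of all features were higher and 16.8% lower. Ptcd3 is a small subunit protein with RNA-binding repeats, and Aurkaip1 is a small subunit protein. Mitochondrial translation factors had a median of 0.08 over 16 genes. With the block 4 of the 16 were higher and 3 lower, beside 13.0% and 16.8% of all features. Guf1, the mitochondrial counterpart of a bacterial elongation factor, was the only one to pass in limma, beside 7.11% of all features. Its signals were -0.95 and -0.81 with AEPS and -1.81 and -2.04 in control cells, a change of 1.04 (adjusted p 0.046), and averaged over its probes it changed by 0.63 without passing (0.098). Pdf, which removes the formyl group from new proteins, was lowest at -0.51.

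Among genes for assembly of the mitoribosome and modification of its RNA, 3 passed on the 75th percentile scale, all lower with AEPS. Of 25 examined, 24 were tested, and 7.11% of all features passed in the same fit. Mettl17, an assembly factor of the small subunit, gave -0.28 and -0.38 with AEPS and 0.71 and 0.84 in control cells, a change of -1.10 ± 0.14 (SE; limma adjusted p 0.036). Mrm2, which methylates the large ribosomal RNA, gave -1.26 and -1.12 with AEPS and -0.20 and 0.03 in control cells (-1.10, adjusted p 0.043). Rbfa, which acts on the small subunit RNA during assembly, gave 2.12 and 2.31 with AEPS and 3.18 and 3.30 in control cells (-1.03, adjusted p 0.043). The highest was Mterf3 at 0.96. The median of the list was -0.07, and with the block 3 were higher and 7 lower, beside 13.0% and 16.8% of all features. The calls depended on the scaling. Spike-in scaling gave 4 higher and 0 lower, beside 11.9% and 0.397% of all features. With normexp 3 were higher and 4 lower, beside 7.34% and 10.4%. Quantile normalization gave 2 higher and 6 lower, beside 6.59% and 5.55%. With spike-in scaling the 3 named falls were smaller and did not pass, at -0.50 for Mettl17 (adjusted p 0.264), -0.50 for Mrm2 (0.178) and -0.42 for Rbfa (0.253). With any 1 of the 4 arrays left out, none of the 3 passed, with adjusted p between 0.093 and 0.265 over Mettl17, Mrm2 and Rbfa.

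Among 20 mitochondrial aminoacyl-tRNA synthetases and related enzymes the median was -0.16. With the block 4 of the 20 were higher and 4 lower, beside 13.0% and 16.8% of all features. Nars2 was the only one past the threshold without the block (limma adjusted p 0.033), beside 7.11% of all features. On both control arrays, however, Nars2 was at background level. It entered the test only through the AEPS arrays, so a difference in this direction was fixed by the filter and is no support for a change. The signals of Nars2 were -4.01 and -4.64 with AEPS. The lowest signals well above background on the control arrays were -4.76 and -4.50, so its control mean of -6.59 gives no measured level. No fold is drawn from these values, and with normexp background correction its change was -0.14. Pars2 was lowest at -0.80. The 10 genes of mitochondrial DNA transcription and maintenance had a median of 0.14, from Tefm, a transcription elongation factor, at 0.84 to Polg2, an accessory subunit of the mitochondrial DNA polymerase, at -0.75. Of the 10, 0 passed in limma. At an unadjusted p of 0.05, 4 were higher (40.0%) and 3 lower (30.0%), against 14.4% and 18.2% of all features. With the slide as block 4 passed higher and 3 lower, beside 13.0% and 16.8% of all features. Among them were Tefm (adjusted p 0.038) and Polg2 (0.034).

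Regulators of mitochondrial biogenesis moved in both directions. Myc, a transcription factor that drives growth genes, gave 3.73 and 3.85 with AEPS and 0.88 and 0.98 in control cells, a change of 2.86 (limma adjusted p 0.010). Gabpa, which encodes the DNA-binding subunit of the ETS factor GABP, gave 0.46 and 0.44 with AEPS and -0.95 and -0.80 in control cells, a change of 1.33 (0.029). Ppargc1b, a coactivator of nuclear genes for mitochondria, gave -2.55 and -2.24 with AEPS and -1.06 and -0.82 in control cells, a change of -1.46 (0.038), and -0.85 with spike-in scaling (adjusted p 0.060). Ppargc1a was not well above background on any array. The other 6 genes tested in this list did not pass, although Mtor, at 0.77, passed with the block (0.035). In the limma fit without the block 7.11% of all features passed. With the block 3 genes of the list were higher and 1 lower, beside 13.0% and 16.8% of all features. Without either control array, none of the 8 genes called in the 5 lists of mitochondrial translation, assembly, DNA and regulator genes passed, Myc included (adjusted p 0.053 without the control array of slide 1 and 0.062 without that of slide 2).

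Larger lists were read in the same way. The 91 tested genes of the respiratory chain and ATP synthase had a median of -0.20 (0.40 with spike-in scaling), and 0 passed in limma, with 4 higher (4.4%) and 10 lower (11.0%) at an unadjusted p of 0.05, both under the shares of all features given above. The 78 tested cytosolic ribosomal protein genes had a median of -0.32, which was 0.06 with quantile normalization, 0.28 with spike-in scaling and 0.08 in the third pair of the authors' table. The direction for these genes changes with the scaling. Their 0 calls in limma stood beside 0 higher and 10 lower (12.8%) at an unadjusted p of 0.05, again under the shares of all features.

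**Figure D4:**
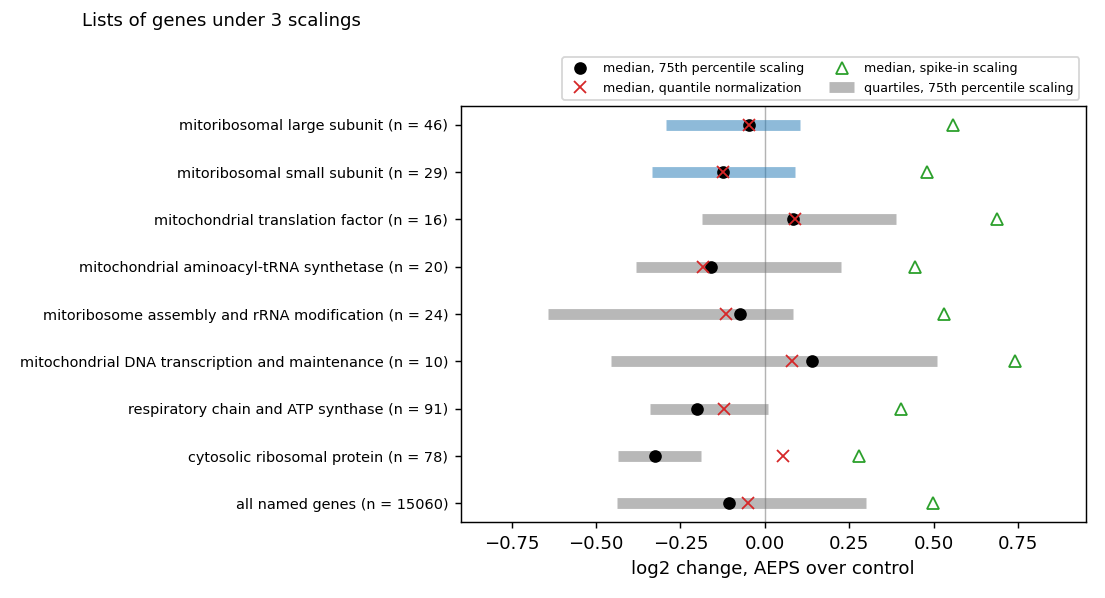
Median log2 change, AEPS over control, for lists of genes (numbers tested in brackets) under the 75th percentile scaling, with quartile bars, and the medians under quantile normalization and spike-in scaling. The medians of large and small subunit genes are -0.05 and -0.12 and lie above 0 with spike-in scaling, as do those of all named genes; the cytosolic ribosomal protein median is -0.32 and changes sign under both other scalings.

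Promoters of the members held more matches to the letters of 3 factors than promoters overall. RefSeq gave 73 promoters for 67 of the 76 members. Each promoter covers 250 bases before to 50 after the start, and both strands were searched. The letters of the ETS factor GABP, CCGGAAG, were in 24 of 73 (32.9%), against 8.86% of 32851 promoters. Those of NRF-1, GCATGCGC, were in 8 (11.0%, against 2.71%), and those of YY1, AAGATGGC, were in 12 (16.4%, against 2.75%). TATAAA was in 5 (6.85%, against 13.6%) and the E-box CACGTG bound by MYC in 7 (9.59%, against 7.15%). None of these 5 strings contains another. Among members with a change above 0.4, 0 of 8 promoters held the ETS letters, and among those under -0.4, 4 of 12 did. The latter include Mrps23, whose probes differed in sign. These counts are descriptions of the letters in the windows. The promoters were not matched for base composition, and a gene with several promoters counts once for each.

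Some members share a start region with a neighbour on the opposite strand. Of 20 members with such a partner within 250 bases in the RefSeq table, 17 pairs had both genes tested, counting the pair of Mrps11 and Mrpl46 once. The sign was the same in 13 of the 17 on the scanner arrays. Since 47 of 75 members and 8696 of 15060 named genes lay below 0, many unrelated pairs also share a sign. No test was made of the pairs. Among the 13, Mrpl49 with Fau differed between the sources, since Fau read -0.49 there and 0.16 in the authors' deposited table. Mrpl40 with Hira differed too, since Mrpl40 lay near 0, at 0.003 there and -0.010 in the table (Hira 0.38 and 0.31). In the other direction, Mrpl30 read -0.03 on the scanner arrays and 0.01 in the table, where its partner Mitd1 read 1.08. Mrps11 and Mrpl46, both mitoribosomal and 42 bases apart, differed in sign and size, at -0.65 for Mrps11 and 0.06 for Mrpl46. Mrps12 and Sars2, a mitochondrial synthetase gene 147 bases away, read -0.22 and -0.66. Mrpl43 and Twnk, which encodes the mitochondrial DNA helicase, read -0.41 and -0.68. Mrps27 and Ptcd2 read -0.46 and -0.48. The partners that passed in limma numbered 4, in a fit where 7.11% of all features passed. Tcp1, a chaperonin subunit beside Mrpl18, read 1.18 (limma adjusted p 0.031), where the member read 0.13. Klc4 beside Mrpl2 read -1.18 (0.032), where the member read -0.34. Mitd1 beside Mrpl30 read 1.12 (0.035), where the member read -0.03 and so lay on the other side of 0. The last, 2610507I01Rik beside Mrpl55, read -1.19 (0.029), where the member read -0.44. Its signals were dim, at -3.43 and -3.45 with AEPS and -2.26 and -2.25 in control cells.

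**Figure D5:**
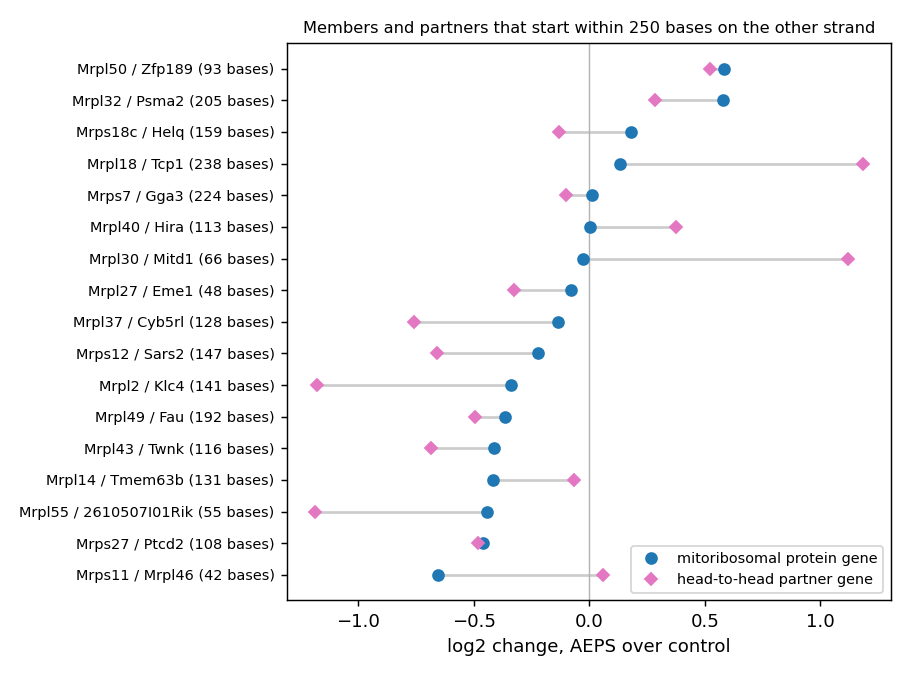
Log2 change, AEPS over control, of 17 members (circles) and of the gene that starts within 250 bases on the other strand (diamonds), with the distance between starts in brackets. Mrps27 and Ptcd2 lie together, whereas Mrpl18 with Tcp1 and Mrpl30 with Mitd1 lie apart; values are relative to the 75th percentile and shift by about the same amount under spike-in scaling.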

How the data were processed

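Total RNA was copied to Cy3-labelled cRNA, per the labels' protocols, and, per the file headers, Agilent Feature Extraction 10.7.1.1 read the arrays. The deposited scanner files hold spot intensity values, background-subtracted per the file headers. The authors' deposited value table is on a scale close to log2, with column medians of 4.71 and sorted columns within 0.01 of each other. The sources used here do not say how it was made. Control spots and outlier spots were left out and log2 of the processed signal was taken minus each array's 75th percentile (574.7 and 487.6 for AEPS, 400.7 and 286.7 for control). A probe was tested if its signal was well over background on both arrays of either group, a gene by its brightest probe. limma 3.58.1 in R 4.3.3 compared the groups, with Benjamini-Hochberg adjustment over 25929 features at 0.05, and was tested on simulated data. Number of arrays limits the precision. Same-numbered table columns deviated together from their group means (0.58, 0.38 and 0.42), with other pairs at -0.50 to 0.24 and scanner slides at 0.62. Deviations from a group mean are tied to each other, so the other pairs are no independent contrast. Samples were taken as paired by number, what they share was not tested, and the slide entered as a block in an alternative fit. Members and lists were chosen with earlier results of these data known. Members were named by fixed rule (in each subunit the 5 highest and 5 lowest changes, the 3 brightest members, those not above background, and Mrpl11, Mrpl12, Mrps12, Mrps18a, Mrps18b, Mrps18c, Mrps30 and Mrps36), and other genes if past the threshold or at a list's extremes. Further genes named, such as Mrpl35, Mrpl14, Mrpl43, Mrps23, Mrpl34 and the neighbours, were chosen after their values were seen. Subunit structure and bacterial counterparts are from general knowledge. A marker gene and a probe sequence are not reported here.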

Additional observations from a re-analysis of the deposited data

How the results depend on the processing

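The count of features called, 1844, was 3146 with quantile normalization, 3182 with spike-in scaling, 4588 with normexp, 0 without a filter on dim probes, 7723 with the replicate block, and 8669 and 12918 in the authors' table without and with it; without 1 distinct array it was 0 to 819, the 0 being without control replicate 3. Members called, 0, became 3, 7, 5, 21, 32 and 37 under quantile, spike-in, normexp, block, table, and table with block, with 2, 0, 0, 12, 21 and 24 of them lower with AEPS. The large subunit median of -0.05 was 0.56 with spike-in scaling, 0.035 with normexp, -0.026 with probe means, -0.017 in the table with or without the block, -0.060 by structure, and -0.115 (without control replicate 1-2) to 0.013 (without AEPS replicate 1-2) with 1 array left out. The small subunit median of -0.12 was 0.48 with spike-in scaling, -0.051 with normexp, -0.087 in the table with or without the block, and -0.25 (without control replicate 1-2) to -0.012 (without control replicate 3) with 1 array left out. Spike-in scaling turned 45 of the 47 members below 0 above it. Among the genes that the naming rule takes, 19 turned, to 0.16 for Aurkaip1 and Mrpl10, 0.50 for Mrpl11, 0.49 for Mrpl20, 0.17 for Mrpl28, 0.59 for Mrpl33, 0.11 for Mrpl4 and Mrps34, 0.16 for Mrpl55, 0.38 for Mrps12, 0.48 for Mrps18a, 0.56 for Mrps18b, 0.27 for Mrps21, 0.059 for Mrps24, 0.10 for Mrps26, 0.44 for Mrps30, 0.40 for Mrps36, 0.069 for Mrps6 and 0.091 for Pdf. Mrpl33, near 0, was also above it with quantile normalization (0.00015), normexp (0.075) and the table with or without the block (0.03). With normexp Mrps18b was 0.040 and Nars2 -0.14. Without 1 array Mrpl20 ranged from -0.22 to 0.0023, Mrpl33 from -0.13 to 0.10 and Mrps18a from -0.26 to 0.0064. The cause was not tested. The alternative added after seeing the data was AEPS 3 minus control 3 in the table alone, columns that are not the scanner arrays of replicate 3. It gave -0.05 and -0.13 for the large and small subunit medians.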
